A study of Mus musculus with 6 samples.

Results

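The genes described here encode enzymes and a glutamine transporter by which the kidney makes glucose and ammonia: Pck1, Pck2, Fbp1, Fbp2, Pcx, Gls2, Glud1 and Slc38a3. They were chosen by name, and each was given the region from 3 kb upstream of its start to its end in the GENCODE M39 annotation of the GRCm39 mouse assembly. These regions held 86 distinct intervals of open chromatin out of 279569 in the whole data set, and 1 of the 86 lay in the regions of both Fbp1 and Fbp2. The intervals come from ATAC-seq, in which the transposase Tn5 cuts accessible DNA and so marks promoters and enhancers.

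Kidney cortex was sampled from 3 WT mice and from 3 mice with a tubule-specific Acly knockout (Acly cKO), all with the treatment label Control. The knockout mice carried Acly fl/fl alleles and a Cre transgene under the Ksp (Cdh16) promoter, which acts in tubule epithelium, and the WT mice were fl/fl littermates without Cre. Batches 1 and 2 in the labels hold WT mice and batches 4 and 5 hold Acly cKO mice, so genotype and batch cannot be told apart. All values below come from a single peak call on pooled libraries, and which libraries entered the pool is not given in the sources used here. No value therefore belongs to a genotype or a replicate, no comparison of WT with Acly cKO was made, and every comparison between genes is a description without a test.

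Cells of the proximal tubule are, beside hepatocytes, the main site of gluconeogenesis in the body. They take up glutamine, release its nitrogen as ammonium that carries acid into the urine, and turn its carbon skeleton into glucose. The route runs from the glutamine transporter SLC38A3 through a glutaminase and glutamate dehydrogenase (GLUD1) to alpha-ketoglutarate, then through the citric acid cycle to oxaloacetate, which phosphoenolpyruvate carboxykinase (PCK1 in the cytosol, PCK2 in mitochondria) converts to phosphoenolpyruvate, and fructose-1,6-bisphosphatase (FBP1, FBP2) carries out a later irreversible step. Pyruvate carboxylase (PCX) feeds the same route from lactate and pyruvate. Transcription of Pck1 is known to respond to cAMP, glucocorticoids and acidosis.

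The fold enrichment at a summit, the position of highest signal, states how many reads covered it relative to a background that was the same at all positions. This allowed the reads behind each summit to be recovered, and the values in brackets below are exact Poisson intervals at the 95% level. They cover counting error in the pool only, not differences between animals. In bulk cortex, a low value can come from fewer cells with the site open or from less opening per cell, and these cannot be told apart.

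The sequences under 6 of the described summits are shown here, read from GRCm39 on the strand of the gene, because they lie at start sites or at strong sites away from the annotated start. Windows extend up to 100 bp on either side of the summit and stop where an annotated exon begins. Capitals mark the CCAAT box or the cAMP response element (CRE, TGACGTCA), and windows without capitals are shown for their position.
Pck1, chr2:172994584-172994743, plus strand, upstream of the start: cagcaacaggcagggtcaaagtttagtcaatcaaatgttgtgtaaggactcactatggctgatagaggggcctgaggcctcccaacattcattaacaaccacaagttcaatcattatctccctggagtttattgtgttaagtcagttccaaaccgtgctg
Gls2, chr10:128030136-128030315, plus strand, upstream of the start: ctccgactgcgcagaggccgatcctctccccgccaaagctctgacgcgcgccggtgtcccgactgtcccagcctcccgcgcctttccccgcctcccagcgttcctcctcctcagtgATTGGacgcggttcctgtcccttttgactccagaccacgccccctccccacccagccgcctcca
Pcx, chr19:4644219-4644373, plus strand, upstream of an inner start site: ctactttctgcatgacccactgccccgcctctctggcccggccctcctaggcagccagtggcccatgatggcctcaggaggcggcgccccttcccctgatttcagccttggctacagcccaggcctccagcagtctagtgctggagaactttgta
Fbp1, chr13:63018552-63018751, minus strand, intron 4: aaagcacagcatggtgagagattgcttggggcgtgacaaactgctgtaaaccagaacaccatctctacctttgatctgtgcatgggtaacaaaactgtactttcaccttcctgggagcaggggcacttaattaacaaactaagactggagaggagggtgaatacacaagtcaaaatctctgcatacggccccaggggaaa
Fbp2, chr13:63004124-63004303, minus strand, intron 1: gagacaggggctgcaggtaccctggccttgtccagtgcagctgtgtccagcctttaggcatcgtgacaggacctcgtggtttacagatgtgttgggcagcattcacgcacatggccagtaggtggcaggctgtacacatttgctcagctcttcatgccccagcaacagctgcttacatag
Slc38a3, chr9:107547561-107547760, minus strand, upstream of the gene: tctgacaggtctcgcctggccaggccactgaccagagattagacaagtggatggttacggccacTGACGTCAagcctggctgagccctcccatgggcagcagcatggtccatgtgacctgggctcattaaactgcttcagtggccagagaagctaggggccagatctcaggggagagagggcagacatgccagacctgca
The windows differ in base composition: the Gls2 window has a GC content of 68.9% and 17 CpG dinucleotides, whereas the Pck1 window has 44.4% and 1.

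Start sites were open at all 8 genes. Each had an interval within 1 kb of its canonical start site (the start of the transcript that the annotation names as representative), compared with 75.8% of the 21757 protein-coding genes. The median fold enrichment of the highest summit in that window was 36.2 for the 8 genes and 17.0 for all protein-coding genes. The order ran from Glud1 (85.6) and Pcx (65.3) through Pck2 (43.9), Gls2 (42.7), Pck1 (29.8), Fbp2 (28.9) and Fbp1 (25.6) to Slc38a3 (12.4). Pck2 and Gls2 had overlapping counting intervals, as did Pck1, Fbp2 and Fbp1, while the other neighbours in this order were separated by more than counting error.

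**Figure D1:**
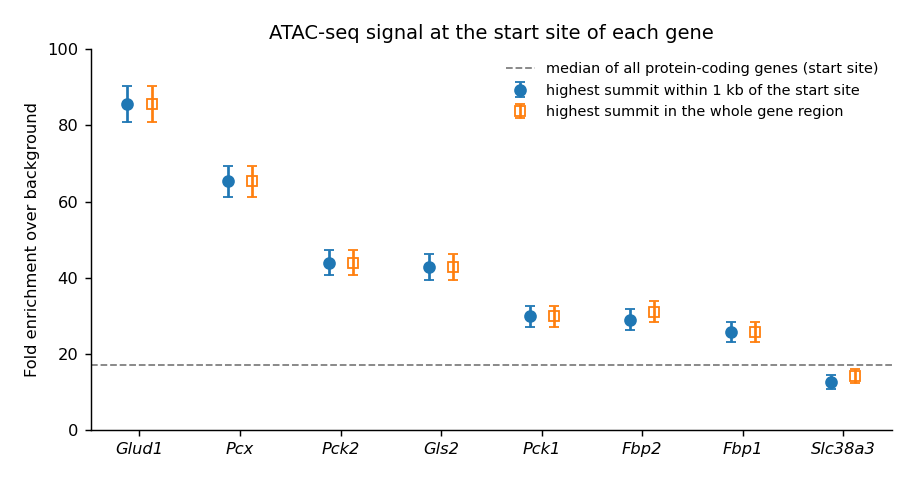
Fold enrichment over background (vertical axis, linear) for the 8 genes, at the highest summit within 1 kb of the canonical start site (circles) and in the whole gene region (squares). Bars are exact Poisson 95% intervals of the pooled reads, and the dashed line is the median of all protein-coding genes, 17.0. Slc38a3, at 12.4, is the one gene below that line at its start site.

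Of the 86 intervals, 23 (26.7%) had a fold enrichment of at least 5, close to the 24.5% of 183376 intervals in the regions of protein-coding genes. The median over the 86 intervals was 2.36, against 2.49 in those regions. The highest summit of a gene lay within 1 kb of the canonical start in 6 of the 8 genes, compared with 63.1% of the protein-coding genes that had an interval. The exceptions were Fbp2 and Slc38a3, in both of which the counting interval of the highest summit overlapped that of the start-site summit. Among the 23 stronger intervals, 12 had their highest summit within 1 kb of some annotated start of a protein-coding gene, compared with 34.9% of such intervals overall.

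At least 50% of the gene body was covered by intervals in Pck1 and Fbp1, 2 of the 8 genes, compared with 21.7% of protein-coding genes. Pck1 was covered over 100% of its length and Fbp1 over 91.2%. The remaining genes were covered over 43.6% (Slc38a3), 39.8% (Fbp2), 34.2% (Glud1), 32.1% (Pck2), 25.4% (Pcx) and 11.5% (Gls2), and the median over all protein-coding genes was 14.6%. Coverage was not adjusted for gene length, and a single interval can fill a short gene such as Pck1, at 6323 bp. Broad intervals were present as well: 7 of the 86 were at least 5 kb wide, compared with 2.00% of all intervals within and outside gene regions. They include intervals at Pcx and Glud1 that also cover start sites of other genes.

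**Figure D2:**
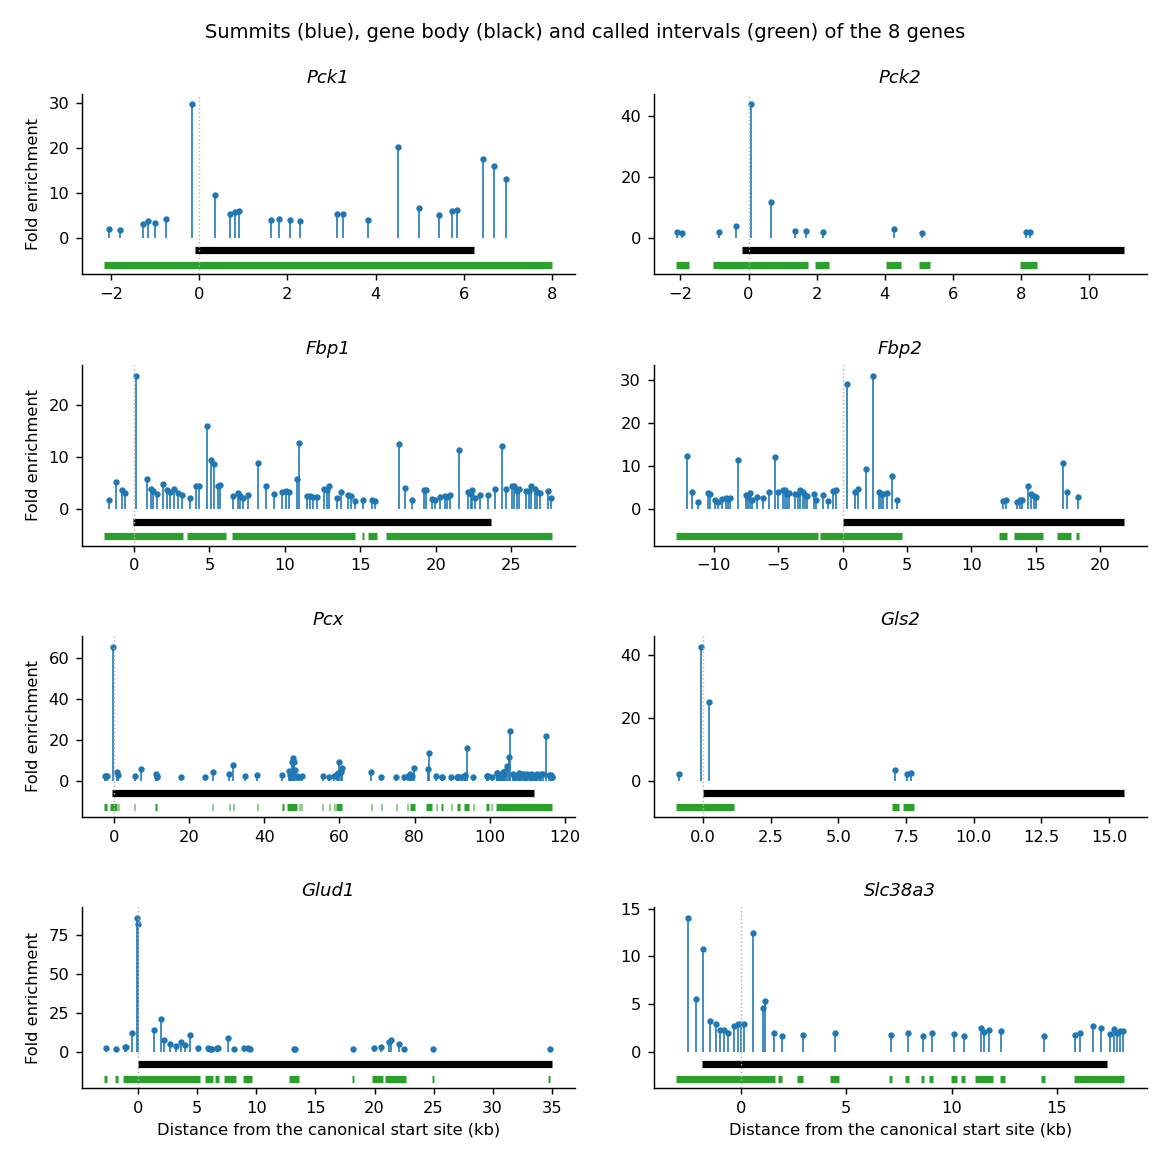
Every summit in the intervals of each gene, by its distance from the canonical start site in kb (horizontal axis, in the direction of transcription) and its fold enrichment (vertical axis, scaled per gene). Black bars mark the gene body and green bars the called intervals. Pck1 is spanned by a single interval with 26 summits, whereas at Gls2 both tall summits, 42.7 and 25.01, stand at the start.

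Pck1, the cytosolic carboxykinase and the classical rate-controlling gene of gluconeogenesis, lay within a single interval of 10160 bp on chromosome 2 (172992691 to 173002850), which ran past both ends of the gene (172994744 to 173001066). The interval held 26 summits. The highest, 157 bp upstream of the canonical start, had a fold enrichment of 29.8 [27.1 to 32.7], from 454 reads. Its strength at the start was ordinary, at percentile 63.7 of protein-coding genes, while its coverage of the gene body stood at percentile 96.6. The next summit in height was not at the promoter but in intron 8, 4513 bp into the gene, at 20.2 [18.0 to 22.6]. A group of 3 summits followed past the 3′ end of the gene, at 17.6, 16.1 and 13.2, between 6437 and 6954 bp from the start. A lower summit of 9.69 lay in exon 2.

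Pck2 encodes the mitochondrial carboxykinase. It had 6 intervals on chromosome 14 (gene at 55777542 to 55788758), but only the start-site interval (55776679 to 55779470, 2792 bp) reached a fold enrichment of 5. Its summit, 61 bp into the untranslated part of exon 1, was at 43.9 [40.6 to 47.3] from 669 reads, and a second summit in intron 1 was at 11.98. The other intervals lay between 1.83 and 3.01. The paralogous pair thus differed in layout: Pck2 had the taller start site, and Pck1 the covered gene body.

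Fbp1, the bisphosphatase of liver and kidney, and Fbp2, known mainly from muscle, are neighbours on the minus strand of chromosome 13, Fbp1 at 63012567 to 63036263 and Fbp2 at 62984691 to 63006552. Fbp1 had 6 intervals, of which 4 reached a fold enrichment of 5. The start-site summit lay 137 bp into exon 1, at 25.6 [23.1 to 28.3] from 390 reads. Further inside the gene, an interval in intron 1 (63030134 to 63032681) had a summit of 15.97, and the next (63021531 to 63029701) one of 12.8. The interval shared with Fbp2 (63008476 to 63019492) was 11017 bp wide with 33 summits, and ran from within Fbp1 into the sequence upstream of Fbp2. Its highest summit, in intron 4 of Fbp1, was at 12.4 [10.7 to 14.3]. A summit of 12.1 in the same interval lay downstream of Fbp1, 5248 bp upstream of the Fbp2 start.

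Fbp2 also had 6 intervals, 4 of them at a fold enrichment of at least 5 when the shared one is counted. In its start-site interval (63001985 to 63008277) there were 15 summits and a pair of tall ones. The summit 295 bp into the gene was at 28.9 [26.3 to 31.8], and one 2348 bp into the gene, in intron 1, at 31.0 [28.2 to 33.9]. Their counting intervals overlapped, so neither can be called the higher. The intron 1 summit lay 81 bp upstream of an annotated alternative start of Fbp2 itself. Within the gene, weaker intervals had summits of 10.7 in intron 5 and 5.43 in intron 4. The counting intervals of the Fbp1 and Fbp2 start-site summits overlapped. Of 5 skeletal muscle genes (Ckm, Acta1, Myh4, Myod1, Tnnt3), 2 had an interval at the start site, compared with 75.8% of protein-coding genes. Start-site values of the 5 muscle genes ranged from 0 to 3.14, while a summit elsewhere in the Ckm region reached 29.0.

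Pcx, the longest of the 8 genes at 112288 bp (chromosome 19, 4559902 to 4672189), had 38 intervals, or 3.30 per 10 kb of region, and 9 of them reached a fold enrichment of 5. The start-site summit, 125 bp upstream of the canonical start and inside the exon of another Pcx transcript, was at 65.3 [61.3 to 69.5] from 996 reads, at percentile 92.9 of protein-coding genes. An interval of 50 summits over the 3′ part of the gene (4662021 to 4677133) reached 24.1 in intron 11, and it also covered the start sites of Lrfn4, Rce1 and Top6bl, so this signal cannot be assigned to Pcx alone. The next intervals were at 15.9, in coding exon 9, and at 13.6, in intron 2. The latter summit, 83834 bp from the canonical start, lay 55 bp upstream of an annotated inner start site of Pcx, and its sequence is shown above. Rodent Pcx is known to be transcribed from separate promoters, and here the canonical start had the higher fold enrichment, 65.3 against 13.6.

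Glud1, which deaminates glutamate and releases ammonia, had the tallest start site of the 8 genes. It had 13 intervals on chromosome 14 (gene at 34032583 to 34067642), 3 of them at a fold enrichment of at least 5. The summit 139 bp upstream of the start was at 85.6 [81.0 to 90.3] from 1306 reads, at percentile 98.2 of protein-coding genes, and another 32 bp upstream was at 81.7. Start sites of the neighbour Shld2, on the opposite strand, lie in the same interval (34031259 to 34037811), so the signal of this interval cannot be assigned to Glud1 alone. Summits in intron 1 of the same interval reached 20.8 and 14.2. The other stronger intervals were at 8.77 in intron 1 and 7.53 in intron 5, the latter 137 bp upstream of an annotated inner start.

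Gls2, a glutaminase best known from liver, had the simplest layout, with 3 intervals on chromosome 10 (gene at 128030316 to 128045873). The start-site interval (128029316 to 128031452) had summits of 42.7 [39.5 to 46.1], from 651 reads, 80 bp upstream and of 25.01 [22.6 to 27.6] in exon 1. The intervals in the gene were at 3.34 and 2.36.

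Slc38a3, the glutamine transporter known to rise in the proximal tubule in acidosis, had the lowest start-site value and the densest set of intervals. It had 14 intervals on chromosome 9 (gene on the minus strand, 107527815 to 107547018), or 6.31 per 10 kb, at percentile 97.4 of protein-coding genes, but only 1 reached a fold enrichment of 5. That interval (107543551 to 107548239) held 16 summits spread over several annotated starts. The highest lay 2480 bp upstream of the canonical start and 643 bp upstream of the outermost annotated start, at 14.0 [12.2 to 16.01] from 213 reads. A summit of 10.7 lay 1763 bp upstream, and the summit within 1 kb of the canonical start was at 12.4 [10.7 to 14.3]. The counting intervals of the upstream and start-site summits overlapped. The CRE shown above lay at positions -2515 to -2508, in the window of the highest summit. The other 13 intervals lay between 1.70 and 2.68.

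The order by start-site signal was unlike the order by coverage. Glud1, Pcx and Gls2, with observed-to-expected CpG ratios of 0.99, 0.82 and 0.78 in the 1 kb around the start, had start-site values of 85.6, 65.3 and 42.7 and at most 34.2% of the gene body covered. Pck1, Fbp2, Fbp1, Pck2 and Slc38a3 had CpG ratios between 0.30 and 0.42, below the median of 0.57 over protein-coding genes. The start-site values of these genes were 29.8, 28.9, 25.6, 43.9 and 12.4, respectively. Pck2 and Gls2 had overlapping counting intervals although their CpG ratios differed. Pck1 and Fbp1 had both low CpG ratios and nearly full coverage.

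**Figure D3:**
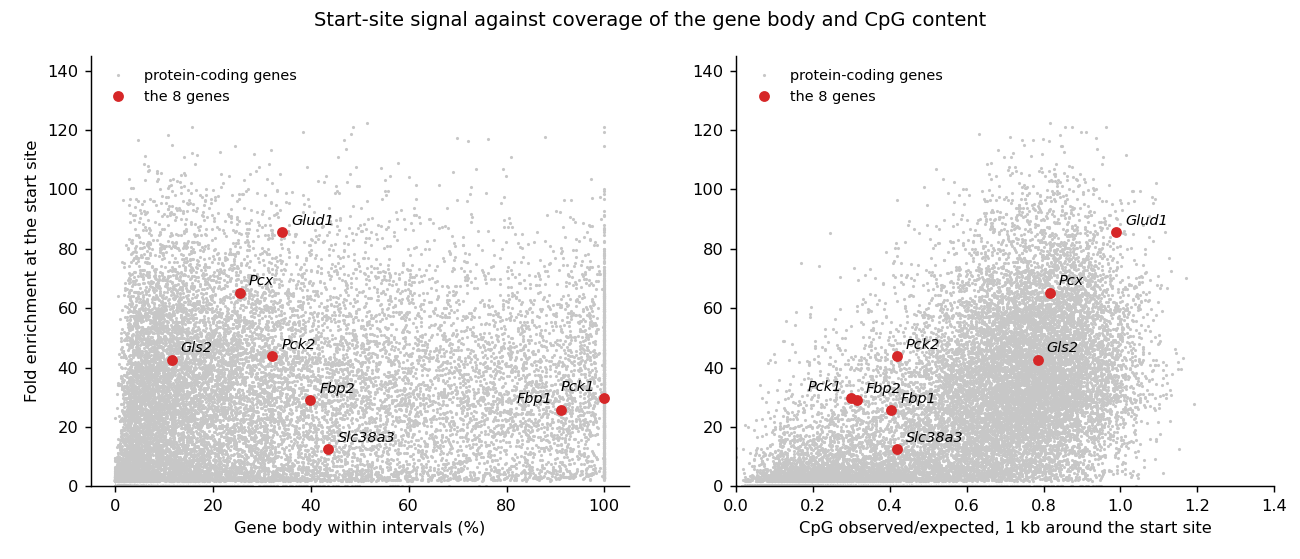
Fold enrichment at the start site (vertical axes) against the percent of the gene body within intervals (left) and the observed-to-expected CpG ratio around the start site (right). Grey points are protein-coding genes and red points the 8 genes. Pck1 and Fbp1 stand at the right of the left panel, with 100% and 91.2% of the gene body covered, and Glud1 and Pcx at the top of both.

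Exact matches to 12 motifs were sought on both strands in windows of 200 bp at the highest summit of each interval. Each window was scored as with or without a match, whatever the number of matches in it. The GC box (GGGCGG) was in 8 of the 86 windows (9.30%) and in 8.15% of all 279569 windows, and the CCAAT box (CCAAT) in 20.9% and 22.8%. The FOXO motif (GTAAACA) was in 3 windows (3.49%) and in 2.80% of all windows. The HNF4 motif (CAAAGTCCA), the ERR motif (TCAAGGTCA) and the E-box (CACGTG) were in 1 window each (1.16%), and in 0.884%, 0.680% and 3.85% of all windows. The CRE in its exact form (TGACGTCA) was in 1 window, that of Slc38a3, and in 0.405% of all windows. Variants of the CRE were not counted here. The TATA box (TATAAA) was in 5 windows (5.81%) and in 6.81% of all windows. No member window held the DR1, glucocorticoid receptor (GR) or C/EBP motif in the form searched (AGGTCANAGGTCA, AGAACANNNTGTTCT, TTGCGCAA), each found in at most 0.0737% of all windows. Shares that rest on a single window are too few to set against the overall share.

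In promoters, from 250 bp upstream to 50 bp downstream of the canonical start, a GC box was found in 5 of the 8 (Pck1, Pck2, Fbp1, Pcx, Glud1), compared with 42.5% of protein-coding genes, and a CCAAT box in 5 (Pck2, Fbp1, Fbp2, Pcx, Gls2), compared with 39.9%.

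The other genes of these pathways were open as well. Of 28 further genes of gluconeogenesis and shared glycolysis, 27 had an interval at the start site, the exception being G6pc2, the glucose-6-phosphatase of pancreatic islets. Their median start-site fold enrichment was 41.1, with Mdh1 (malate dehydrogenase, 96.4), Pgk1 (phosphoglycerate kinase, 74.6) and Pfkfb2 (which sets fructose-2,6-bisphosphate, 72.2) highest. G6pc1, the glucose-6-phosphatase of liver and kidney that completes the route, was at 11.4 [9.77 to 13.2], below the median of protein-coding genes. It is named here after its value was seen. All 19 further ammonia genes had an interval at the start site, with a median of 25.7, while 75.8% of protein-coding genes had such an interval and their median was 17.0. Among the ammonia genes with high values were Glul (glutamine synthetase, 64.7) and Gpt2 (mitochondrial alanine aminotransferase, 51.7). The median share of the gene body covered was 59.1% in the gluconeogenesis and glycolysis list and 51.6% in the ammonia list, compared with 37.0% in the 8 genes and 14.6% in all protein-coding genes. Differences in gene length between the lists were not adjusted for.

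The tissue label was checked against markers. Of 10 proximal tubule genes, 9 had an interval at the start site (Slc22a8 was the exception), compared with 75.8% of protein-coding genes. All thick limb and distal tubule (5), podocyte (3), endothelium (4) and stroma (3) genes had one, as did 4 of 5 collecting duct and 2 of 4 immune genes. The median start-site value was 11.1 for the proximal tubule genes, below the 17.0 of all protein-coding genes. It was 8.51 for the thick ascending limb and distal tubule, 11.5 for the collecting duct and 4.52 for podocytes. For endothelium it was 3.44, for immune cells 0.95 and for stroma 5.63. Genes of other organs were at 2.03 (liver), 0 (skeletal muscle) and 2.23 (brain). Single genes of these lists were higher: Syt1, a brain gene, was at 13.4 at its start site, and summits elsewhere in the region reached 21.5 at Apoa1, 21.0 at Alb, 29.0 at Ckm and 26.9 at Rbfox3. The 5 liver genes (Alb, Apoa1, F2, Tat, Cps1) had start-site values from 0 to 3.08, although liver and kidney share the expression of Pck1 and Fbp1. Cortex holds several cell types, and the cell type in which each of the 8 genes was open was not tested.

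**Figure D4:**
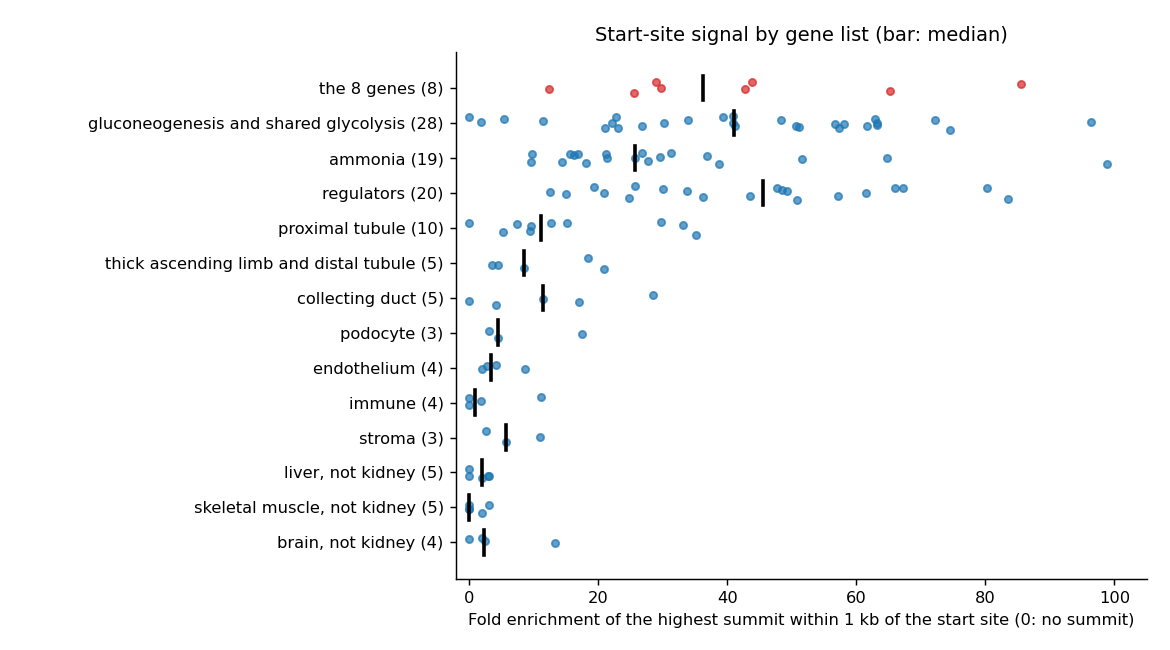
Fold enrichment of the highest summit within 1 kb of the canonical start site (horizontal axis, 0 where there was no summit) for each gene of the 8 genes (red) and of the other lists (blue), with the number of genes in parentheses and the median as a black bar. The 8 genes run from 12.4 to 85.6, and all 5 liver genes lie at or below 3.08.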

How the data were processed

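Kidney cortex ATAC-seq libraries were grouped by the genotype and batch in their labels. Per the authors' methods, fastp-trimmed reads were placed on mm39 with Bowtie2 2.3.4.3, duplicates and reads without a unique position were dropped, and the authors called peaks with MACS3 3.0.0 at a q threshold of 0.05 and removed blacklisted regions with BEDTools 2.29.1. Reads were extended to 200 bp with a stated shift of 100 bp. A shift toward the 5′ side centres the signal on the cut site, but its direction is not given in the sources used here, so summit positions may be displaced. The deposited list gives, for each of 749750 summits, a fold enrichment over background (a linear ratio), -log10 p and -log10 q values, a score and the offset of the summit. The deposited summit list before filtering gives -log10 q, and none of its 874 removed summits lay at the 8 genes. The depth of single libraries is unknown, and without replicates no test was run.

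The authors' fold values were equal to (reads + 1) / (background + 1) with a background of 14.3 reads everywhere, and 100% of summits gave whole reads within 0.05. A background that is the same everywhere does not adjust for local signal, which can widen intervals in broadly open regions. Intervals took the values of their highest summit by q. Coordinates are counted from 1.

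The genes, lists and motifs were chosen with earlier results of these data known. Named for each gene were the strongest and the start-site interval and up to 3 others with a fold of at least 5, and for each pathway list the 3 genes with the strongest start sites and every gene with none. Some listed genes and 1 motif are not reported here, but they enter the counts and medians. Single summits within intervals, and genes of the other lists, were named after their values were seen. Medians are over all genes of a list, with a value of 0 where no summit was called. Calculations used scipy 1.17.1, numpy 2.4.6, pysam 0.24.0, pandas 2.3.3 and matplotlib 3.10.9 under Python 3.11.15, and the scripts were tested on simulated data.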

Additional observations from a re-analysis of the deposited data

How the results depend on the processing

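No paired analysis was possible because all values come from 1 pooled peak call without library columns, and for the same reason no replicate could be left out. The number of intervals at the 8 genes, 86, fell to 41 at a q under 1e-05 and to 23 at a fold enrichment of at least 5, and counting summits instead gave 348. With 10 kb on either side of each gene, 36 instead of 23 intervals reached a fold enrichment of 5. All 8 genes kept an interval at the start site under each of the 4 alternatives tried. A window of 3 kb and the use of any annotated start could not lower this count. Only a q under 1e-05 and a summit required in the window could. The median strongest fold enrichment, 36.8, did not move under the 3 alternatives tried. With the same background everywhere, ranking by fold instead of q could not change it. In each gene the strongest interval overlapped the start-site window, so limiting the choice to start-site intervals returned the same intervals. The median percentile of the strongest interval, 65.5 among protein-coding genes, was 83.6 among genes of all biotypes and 70.6 when taken at the start site. The number of windows with a match, summed over the 12 motifs, fell from 45 to 24 in windows of 100 bp. It came to 66 with 1 mismatch allowed in the longer motifs. Of 24 strongest-interval values of single genes under alternatives, 3 moved beyond their counting interval (Pck2, Fbp1 and Slc38a3). All 3 moved with 10 kb on either side, and the other alternatives returned the same interval in every gene. Of 48 interval counts of single genes under alternatives, 21 moved beyond the margin set for counts. Depth limits weak intervals most: the lowest called fold enrichment, 1.70, stands for 25 reads over a background of 14.3.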

Other observations

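Genes that control gluconeogenesis had open start sites in this pool. All 20 genes of a list of its regulators had an interval within 1 kb of the canonical start. Their start-site fold enrichment had a median of 45.6 and ran from 12.5 to 83.5. A median of 77.6% of the gene body was covered, without adjustment for gene length. Among protein-coding genes, 75.8% had such an interval, and the medians were 17.0 and 14.6%. The highest were Crtc2 (83.5), a coactivator of CREB, Creb1 (80.3), the cAMP-responsive factor itself, and Irs2 (67.3), an adaptor of insulin signalling. Hnf4a, a nuclear receptor of the proximal tubule, was at 25.7 at its start site and is named after its value was seen.

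With 1 mismatch allowed, a CRE-like sequence was found in 7 of the 86 windows at the 8 genes and in 6.82% of all windows. An ERR-like sequence was in 8 and in 8.00%, and an HNF4-like sequence in 5 and in 9.04%. For C/EBP the values were 3 and 3.00%, for DR1 1 and 0.756%, and for GR 0 and 0.162%. These windows were not assigned to single genes.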
